A study of Mus musculus with 8 samples.

Results

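The comparison set every cultured library of the series against every freshly isolated library. All 8 ATAC-seq libraries entered it, 4 on each side, and their side was taken from their labels alone. ATAC-seq marks accessible DNA with a transposase, and the measurement here was the set of accessible regions, or peaks, that the authors called in each library. The freshly isolated side held 2 QSC libraries, from freshly isolated satellite cells for which the labels name no injury or treatment, and 2 ASC libraries, from satellite cells isolated 2.5 days after muscle injury. The cultured side held 2 libraries with control siRNA (LncMyod Control in the labels, Control siRNA here) and 2 with siRNA against LncMyod (LncMyod Knockdown, LncMyod siRNA here). Both came from satellite cells put into F10 medium with horse serum towards differentiation. The siRNA against LncMyod was applied for 48 h before harvest, and no time is recorded for control siRNA. All cells came from hindlimb muscle of C57BL/6 mice with no engineered allele named in the labels. Regions counted for a side when all 4 of its libraries held them and none of the other side did, and the length covered by peaks was compared at each gene locus.

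Satellite cells are the stem cells of skeletal muscle. They rest under the fibre's basement membrane, express the transcription factor Pax7, and after injury enter the cell cycle, switch on MyoD and then myogenin, leave the cycle and fuse into fibres with a contractile apparatus. MyoD and its relatives bind E-boxes, short palindromic DNA motifs, and act at muscle genes together with MEF2 and SRF, whose site is the CArG box. Opening of chromatin at promoters and distal enhancers is one layer at which that programme is set.

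The sides differed in culture, in siRNA, in time outside the animal and in the state of the cells at once, and the contributions of these cannot be told apart here. By their descriptions both cultured groups received an siRNA, and the freshly isolated groups are labelled as untreated, though ASC came from injured muscle. The treatment text with the 48 h stands on every sample alike, and it was read here as applying to LncMyod siRNA because it names that target. Nothing in the labels ties replicates to different animals or cultures. The p-values thus reflect spread among these samples alone, and that spread may be technical. The files hold peaks and no reads. Depth is therefore unknown, and the absence of a peak does not show closed chromatin. In bulk libraries, fewer cells with an open site and less accessibility per cell cannot be told apart. The LncMyod locus was not analysed here, and a peak list gives no check of the knockdown.

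Promoter windows from 250 bases before to 50 bases after a RefSeq start, on GRCm38.p6, are shown first, since they tie a side-specific peak to a named gene and its sequence. The first 5 below had a peak in all 4 cultured libraries and in none of the freshly isolated ones, and belong to muscle genes. The last 2 had a peak in all 4 freshly isolated libraries and in no cultured one. Capn3, Nrap and Galnt7 were named by the rule on enrichment, and Acta1, Actc1, Casq2 and Il11 were chosen after their values were seen. Capitals mark matches to the E-box CAGCTG, the MEF2 motif, the SRF CArG box, the AP-1 motif TGANTCA and the KLF and SP motif GGGCGG on either strand.
Acta1 (skeletal alpha-actin; chr8:123894726-123895025, minus strand): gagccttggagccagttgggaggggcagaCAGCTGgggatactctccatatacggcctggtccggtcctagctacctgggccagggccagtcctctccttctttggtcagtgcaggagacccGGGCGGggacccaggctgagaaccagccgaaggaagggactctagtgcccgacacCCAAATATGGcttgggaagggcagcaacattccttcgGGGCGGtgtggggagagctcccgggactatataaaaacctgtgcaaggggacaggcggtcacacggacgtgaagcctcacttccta
Actc1 (cardiac alpha-actin, also made in young myotubes; chr2:114052826-114053125, minus strand): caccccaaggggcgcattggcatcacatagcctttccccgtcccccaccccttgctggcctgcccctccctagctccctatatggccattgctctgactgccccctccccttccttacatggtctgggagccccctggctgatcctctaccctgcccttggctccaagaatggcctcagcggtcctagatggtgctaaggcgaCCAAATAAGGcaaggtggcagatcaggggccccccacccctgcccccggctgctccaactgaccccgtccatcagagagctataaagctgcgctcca
Casq2 (calsequestrin, a calcium store of the sarcoplasmic reticulum; chr3:102086165-102086464, plus strand): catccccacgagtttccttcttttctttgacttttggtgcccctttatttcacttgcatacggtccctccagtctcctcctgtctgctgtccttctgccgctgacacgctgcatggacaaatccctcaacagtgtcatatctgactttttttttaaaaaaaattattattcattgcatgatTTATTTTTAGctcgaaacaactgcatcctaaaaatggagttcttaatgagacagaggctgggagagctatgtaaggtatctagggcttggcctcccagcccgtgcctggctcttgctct
Capn3 (muscle calpain; chr2:120463343-120463642, plus strand): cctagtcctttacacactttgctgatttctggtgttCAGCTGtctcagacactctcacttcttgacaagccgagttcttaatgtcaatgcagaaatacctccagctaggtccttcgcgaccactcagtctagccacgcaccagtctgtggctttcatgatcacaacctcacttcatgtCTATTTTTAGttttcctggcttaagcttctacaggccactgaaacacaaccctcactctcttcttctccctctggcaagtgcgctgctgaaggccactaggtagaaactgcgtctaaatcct
Nrap (a scaffold of growing myofibrils; chr19:56389989-56390288, minus strand): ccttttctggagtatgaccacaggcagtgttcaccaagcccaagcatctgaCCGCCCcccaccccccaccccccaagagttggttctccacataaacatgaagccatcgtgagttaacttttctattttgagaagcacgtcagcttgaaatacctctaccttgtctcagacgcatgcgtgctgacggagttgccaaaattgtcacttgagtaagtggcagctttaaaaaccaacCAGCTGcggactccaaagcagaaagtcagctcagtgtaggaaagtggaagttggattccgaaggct
Galnt7 (a glycosyltransferase; chr8:57653006-57653305, minus strand): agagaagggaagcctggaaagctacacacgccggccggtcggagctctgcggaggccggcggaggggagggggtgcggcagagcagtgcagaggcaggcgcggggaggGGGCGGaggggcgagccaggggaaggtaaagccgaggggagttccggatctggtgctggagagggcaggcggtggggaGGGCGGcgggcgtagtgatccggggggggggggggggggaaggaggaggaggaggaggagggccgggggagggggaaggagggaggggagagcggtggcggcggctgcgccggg
Il11 (interleukin 11; chr7:4778092-4778391, minus strand): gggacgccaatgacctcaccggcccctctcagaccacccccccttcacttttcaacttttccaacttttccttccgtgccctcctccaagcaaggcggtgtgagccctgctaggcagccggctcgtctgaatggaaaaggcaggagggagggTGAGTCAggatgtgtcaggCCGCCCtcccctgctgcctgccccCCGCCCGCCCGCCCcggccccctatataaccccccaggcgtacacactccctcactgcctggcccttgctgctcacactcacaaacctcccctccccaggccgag

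The Acta1 window holds an E-box at -221 and a CArG box at -73, counted from the start site to the first base of the match. The CArG box of Actc1 begins at -47. MEF2 matches begin at -69 in Casq2 and at -72 in Capn3, and Capn3 has an E-box at -214 as well. The E-box of Nrap lies at -16. Galnt7 and Il11 hold no CAGCTG, MEF2 or CArG match. Il11 has an AP-1 match at -98 and several KLF and SP matches, and Galnt7 has a GC content of 75%.

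Cultured libraries held more and narrower peaks than freshly isolated ones. They had 79396 to 95449 peaks against 59666 to 70341, with median widths of 489 to 530 bp against 588 to 601 bp. For both measures the sides did not overlap (exact two-sided permutation test over libraries, p = 0.0286, the smallest that 4 against 4 can give). Covered length was 54.6 ± 6.38 Mb (SD, n = 4) in culture and 47.8 ± 4.08 Mb (SD, n = 4) in freshly isolated cells, with overlapping sides (exact two-sided permutation p = 0.0857). Loci of satellite cell markers had peaks on both sides. Pax7, Myf5, Myod1, Cdh15, Itga7, Vcam1, Msc, Des, Chodl and Calcr all had covered length in every library, from 0.962 kb at Msc to 13.0 kb at Pax7. Each locus takes in 10 kb on either side of the gene, and the share of all loci covered in every library is not given here. The leukocyte genes Spi1 and Cd68 had covered length in every library as well, so these values do not identify the cells.

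After merging, the 8 libraries gave 141310 regions, and 35293 of them were held by all 8. A total of 6752 regions were held by all 4 cultured libraries and no freshly isolated one, and 779 by all 4 freshly isolated libraries and no cultured one. Their sum, 7531, was the highest of the 35 ways to divide the libraries into 4 and 4 (exact one-sided permutation p = 0.0286, the smallest possible). With the 4 groups as units the smallest p would be 0.333. Trimming every list to the length of the shortest, 59666 peaks, gave 4818 and 2025 regions. A rule over fewer libraries is easier to meet, and both counts were higher whichever library was left out. The largest were 10953 cultured regions without LncMyod siRNA replicate 2 and 1989 isolated regions without ASC replicate 2. Without both ASC libraries the counts were 14221 and 9592, and without both QSC libraries 9452 and 2245.

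**Figure D1:**
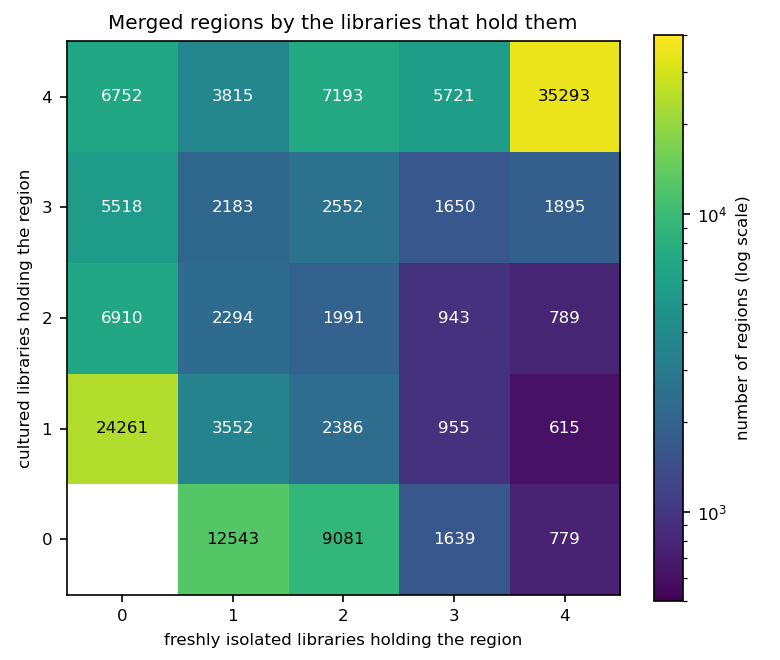
Number of merged regions by how many freshly isolated libraries (horizontal axis, 0 to 4) and how many cultured libraries (vertical axis, 0 to 4) held them, on a log colour scale. The upper left cell holds the 6752 regions of all cultured libraries alone, the lower right cell the 779 regions of all freshly isolated libraries alone, and the upper right cell the 35293 regions of all 8.

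Shared covered sequence followed the same order, with an exception. The Jaccard index of 2 libraries is the length both cover divided by the length at least 1 covers. It averaged 0.564 over the 12 pairs within a side and 0.452 over the 16 pairs between sides. The gap was 0.112 (p = 0.0286 by the exact one-sided permutation test). Pairs within a side include the replicate pairs of each group, at 0.523 to 0.694, which most other divisions separate. The gap and its p thus also take in the likeness of replicates, and with the 4 groups as units the smallest p would be 0.333. ASC and Control siRNA libraries, which stand on opposite sides, shared a mean of 0.5, above the 0.472 that QSC shared with ASC. QSC and LncMyod siRNA were the least alike of the group pairs, at 0.400, and Control siRNA and LncMyod siRNA were the most alike, at 0.594. Whether these group means differ was not tested.

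Most regions of a single side lay away from promoters. Of the cultured-only regions 2.9% were within 1 kb of a RefSeq start, of the isolated-only regions 8.11%, of those held by all 8 libraries 33.1%, and of all regions 11.5%. The first 3 sets had median widths of 545 bp, 756 bp and 1137 bp, and all regions 648 bp. Inside genes lay 62.2% of cultured-only, 68.0% of isolated-only, 77.2% of shared and 67.8% of all regions.

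The 6 cultured-only regions with the highest lowest fold, which is the authors' enrichment over the local background of a library, were chosen for those folds. The first lay 203767 bp from Marcks, the nearest protein-coding gene, at chr10:37342693-37343220 of mm10, with folds of 9.72 and 9.87 under Control siRNA and 10.5 and 8.63 under LncMyod siRNA. The next lay inside Mrc1, the mannose receptor gene, at chr2:14312406-14313224, with folds from 8.32 to 10.4. The others stood inside Lrmda, Pde1a and the long noncoding RNA genes Gm13986 and Gm30504, none of them a gene of the contractile apparatus. On the isolated side the first was inside Jmy, a regulator of actin and p53, at chr13:93488466-93488962, with folds of 5.66 and 5.06 in QSC and 7.11 and 5.19 in ASC. Igf2bp2, an RNA-binding protein of myoblasts, and Rbms3 held another each, at chr16:22092385-22093063 and chr9:116946755-116947342. The rest lay in 4930526H09Rik, 36727 bp from Dcn and 284361 bp from Spry2.

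The most cultured-only regions were held by long genes, from 381 kb (Sorcs2) to 1528 kb (Rbfox1). The counts that follow are not scaled to gene length. Cdh13, an atypical cadherin, and Sorcs2, a sorting receptor, held 11 each, Snx29 10, and Cpne4 and Rbfox1 8 each. At Cdh13 the total covered length did not follow: it was 36.0 ± 2.1 kb in culture and 34.9 ± 4.96 kb in freshly isolated cells (SD, n = 4 each; log2 difference 0.05, adjusted p = 0.588 by limma). Sorcs2 covered 16.4 and 14.0 kb in QSC, 18.3 and 22.6 kb in ASC, 32.0 and 32.1 kb under Control siRNA and 34.5 and 28.8 kb under LncMyod siRNA, with no overlap between the sides. Isolated-only regions were fewer in total, 779 against 6752, so raw counts per gene cannot be compared between the sides. Pde4b, a cyclic AMP phosphodiesterase, held 4, and Ltbp1, which stores TGF-beta in the matrix, and Aopep held 3 each.

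Covered length per locus was then compared. A locus spans the gene and 10 kb to either side, values are scaled to the covered length of the library, and differences are on the log2(scaled bp + 500 bp) scale. Of 27938 loci tested, 2874 (10.3%) had more covered length in culture and 2633 (9.42%) had less at an adjusted p below 0.05 (limma, Benjamini-Hochberg). The 4 cultured libraries stood above all 4 freshly isolated ones at 7.18% of tested loci and below them at 12.4%. Without scaling the split was 3280 more and 880 less. Treating the 4 libraries of a side as plain replicates, with no term for the group, left 1133 and 985. Calls were fewer when libraries were left out: without QSC replicate 2 there were 1432 and 927 calls, without QSC replicate 1 1626 and 1030, and without both 638 and 420. Without Control siRNA replicate 1 there were 1527 and 1086, and without replicate 2 1455 and 1022.

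**Figure D2:**
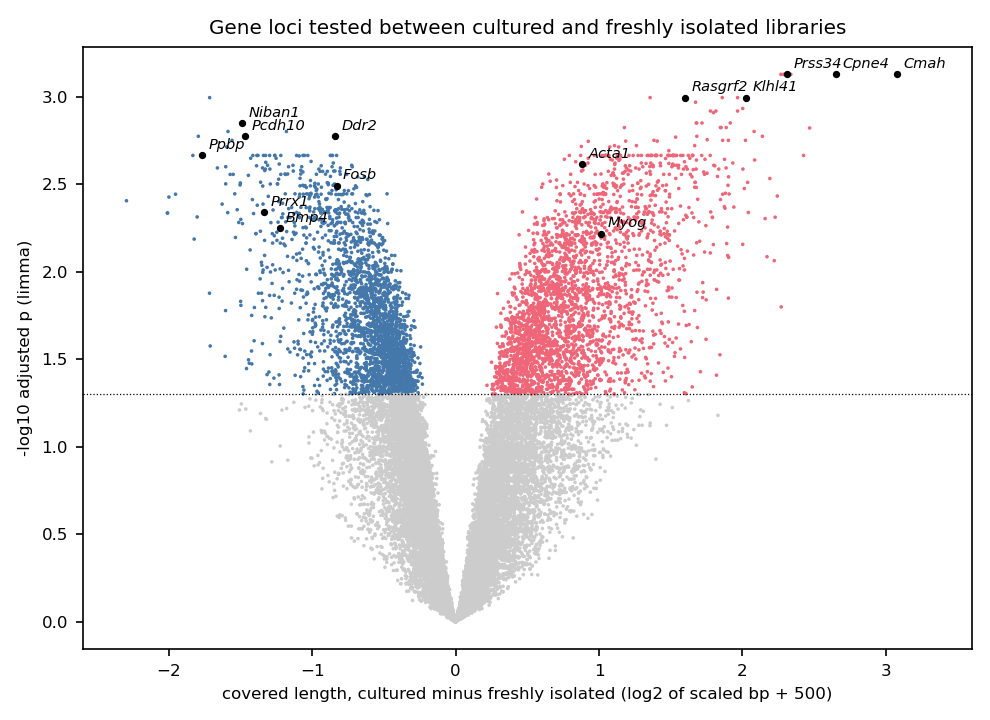
Each point is 1 of the 27938 gene loci, with the log2 difference in covered length between cultured and freshly isolated libraries on the horizontal axis and -log10 of limma's adjusted p on the vertical axis. Red points have more and blue points less covered length in culture past the dotted threshold of 0.05. Cmah stands farthest to the right among the labelled loci, at 3.08.

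Cmah, an enzyme of sialic acid synthesis, had 0 and 0.222 kb in QSC, 0.180 and 0.138 kb in ASC, 4.69 and 5.10 kb under Control siRNA and 5.40 and 4.18 kb under LncMyod siRNA. Cpne4, a calcium-dependent membrane-binding protein, had 0.207 to 0.356 kb in the freshly isolated libraries and 3.95 to 5.45 kb in culture. Both groups of fresh cells were low and both cultured groups high at these 2 genes, with log2 differences of 3.08 ± 0.15 and 2.65 ± 0.12 (SE; adjusted p = 0.000745 each by limma). Prss34, a mast cell protease gene, was listed at 0 in all freshly isolated libraries and had 0.983 and 1.02 kb under Control siRNA and 3.73 and 3.46 kb under LncMyod siRNA.

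At some of these genes ASC lay between QSC and culture. Rasgrf2, an exchange factor for Ras and Rac, had 0.684 and 0.863 kb in QSC, 3.82 and 3.47 kb in ASC, and 5.76 to 7.28 kb in culture. Csmd2 and Wnk2 followed the same order of groups, at 1.03 and 0.917 kb, 4.08 and 3.79 kb and 4.83 to 15.1 kb for Csmd2. Rhobtb2 had 2.31 and 2.15 kb in QSC, 2.58 and 2.70 kb in ASC and 6.55 to 7.37 kb in culture, so its fresh groups lay close together. Zfp618 and Cfap97d2 completed the strongest protein-coding gains, at log2 differences of 1.67 and 1.68.

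Among losses, Niban1, a stress-response gene, had 15.2 and 18.9 kb in QSC, 11.4 and 10.9 kb in ASC, and 4.16 to 4.99 kb in culture (log2 difference -1.49 ± 0.10, SE; adjusted p = 0.00141 by limma). Atp2b1, a plasma membrane calcium pump, fell from 8.34 to 10.3 kb to 3.44 to 4.23 kb. Ddr2, a collagen receptor, had 12.3 to 13.4 kb in the fresh libraries and 6.83 to 7.21 kb in the cultured ones. At each of these the sides did not overlap, and at Niban1 QSC lay above ASC as well. Ppbp, a platelet chemokine gene, had 2.42 to 4.51 kb against 0.404 to 0.674 kb, and the protocadherin Pcdh10 2.99 to 3.70 kb against 0.724 to 0.896 kb. At the named losses other than Ddr2 and Pcdh10, both QSC libraries lay above both ASC libraries. Tnfrsf19, a receptor of the TNF family, had 8.05 and 9.27 kb in QSC, 3.48 and 3.52 kb in ASC and 2.02 to 2.72 kb in culture. F5, Pde4b, Reep3 and Mob3b were the remaining named losses, between -0.83 and -1.38.

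Of 49 genes of the contractile apparatus, 23 had more covered length in culture and 2 less, beside 10.3% and 9.42% of all tested loci, and the median log2 difference was 0.44 against -0.05 over all. The summed length of the list was 211 ± 23.4 kb in culture and 148 ± 6.40 kb in fresh cells (SD, n = 4 each). The number with more ran from 8 without QSC and 9 without Control siRNA to 26 with 50 kb flanks. It was 13 without QSC replicate 2, 14 without either Control siRNA replicate and 15 without QSC replicate 1, and the median stayed between 0.32 and 0.60 under every setting tried.

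Myl1, a fast myosin light chain, had 0.377 and 0.337 kb in QSC, 2.01 and 0.588 kb in ASC, 5.26 and 5.77 kb under Control siRNA and 4.67 and 2.3 kb under LncMyod siRNA (log2 difference 2.00 ± 0.30, SE; adjusted p = 0.00698 by limma). Tnnt3, fast troponin T, had 1.67 and 1.95, 1.14 and 0.662, 6.48 and 4.33, and 4.68 and 3.04 kb in the same order. Every cultured library lay above every fresh one at both. Acta1, whose promoter is printed above, had 1.91 to 2.3 kb in the fresh libraries and 3.94 to 4.65 kb in culture (0.88 ± 0.08, SE; adjusted p = 0.00242 by limma). Counted over the gene body alone, without its flanks, Acta1 stood at -0.29 with an adjusted p of 0.230 by limma. Tnnt2, Tnni1, Tnni2, Tpm2, Myh3, Myh7, Actc1 and Actn3 also had more, between 0.32 for Tpm2 and 1.21 for Tnnt2.

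Klhl41, a partner of nebulin, was listed at 0 in both QSC libraries, had 0.917 and 0.783 kb in ASC and 2.54 to 3.16 kb in culture. Ttn, which encodes titin, had 2.18 to 3.57 kb in the fresh libraries, 15.8 and 13.8 kb under Control siRNA, and 13.7 and 4.05 kb under LncMyod siRNA. LncMyod siRNA replicate 2 was thus far below the other cultured libraries at Ttn, though still above the fresh ones, and the log2 difference of 1.67 had an SE of 0.33 (adjusted p = 0.0167 by limma). The same library was the lowest cultured one at Myl1, Tnnt3, Neb, Mybph, Myoz2, Xirp2 and Casq2. Neb (1.17), Myom2 (1.01), Myom3 (0.87), Mybph (1.14), Tcap (0.90), Ldb3 (0.52), Myoz2 (1.48) and Xirp2 (1.07) passed the threshold upwards on the log2 scale.

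Casq2, of the calcium store, had 0.559 and 0.697 kb in QSC, 4.95 and 4.15 kb in ASC and 3.72 to 7.22 kb in culture, so ASC and culture overlapped there even though its start window was open in culture alone. Atp2a1, the fast calcium pump of the sarcoplasmic reticulum, had 1.47 and 1.34 kb, 2.69 and 2.87 kb and 2.67 to 3.48 kb. The exceptions of the list were Myh2, an adult fast myosin (-0.48), and Nebl, a cardiac relative of nebulin (-0.56). Both had their highest values in QSC.

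**Figure D3:**
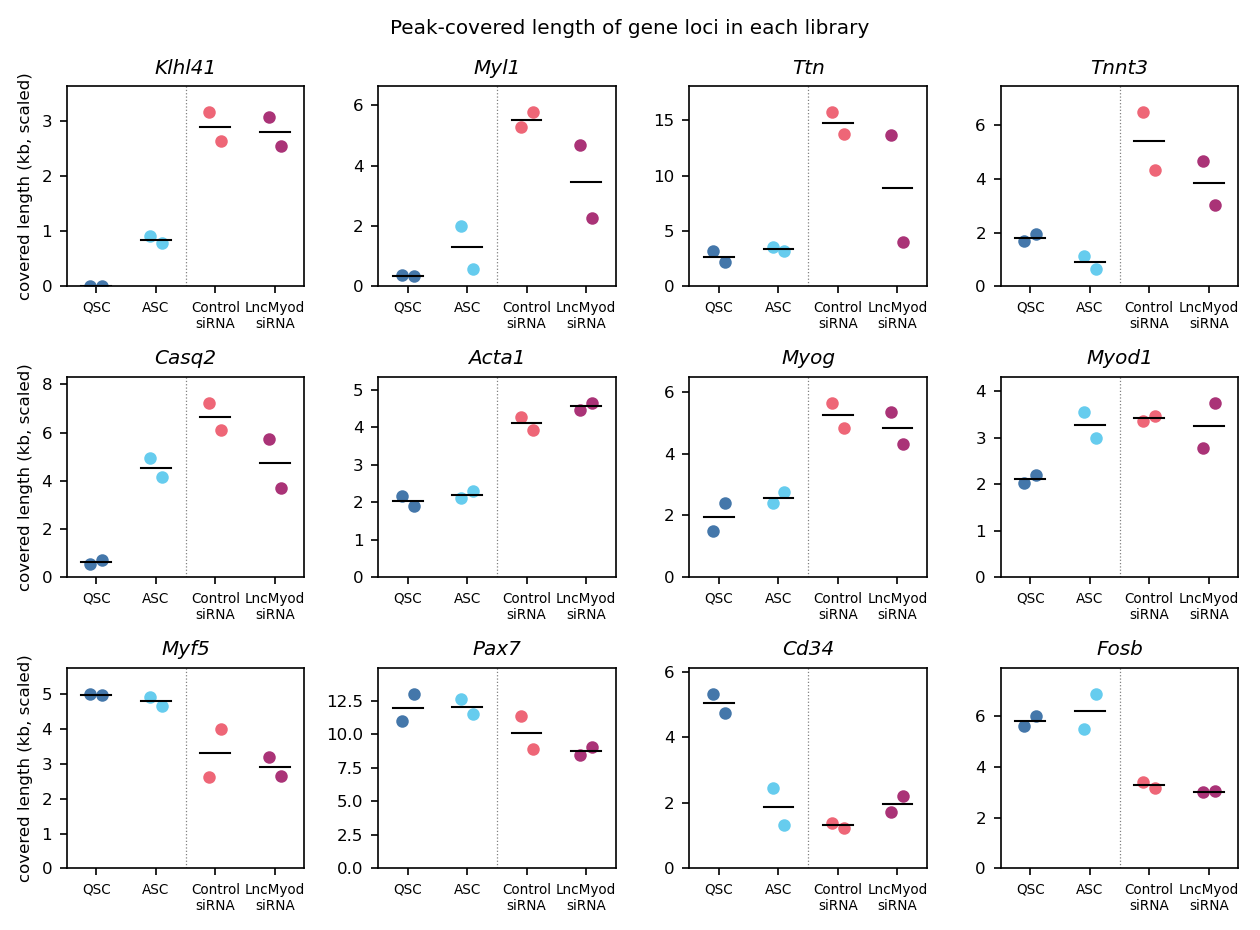
Scaled covered length (kb) of 12 gene loci in each library, with the 2 replicates of a group as points and their mean as a line, and the freshly isolated groups left of the dotted line. Klhl41, Myl1, Ttn, Tnnt3, Acta1 and Myog are higher in all cultured libraries, Myf5 and Fosb are lower in all of them, and Casq2, Myod1, Pax7 and Cd34 overlap between the sides.

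The regulators of myogenesis did not move together. Of 31 genes of the myogenic programme, 7 had more and 4 less, with a median of 0.07, beside 10.3% and 9.42% of all loci. There were 1 and 0 without QSC, 2 and 4 without Control siRNA, and 2 and 2 with 2 plain sides. Only 1 had less without QSC replicate 2, and 2 without QSC replicate 1, ASC replicate 2 or LncMyod siRNA replicate 2. Myog, the factor of terminal differentiation, had 1.5 and 2.40 kb in QSC, 2.39 and 2.76 kb in ASC, 5.63 and 4.84 kb under Control siRNA and 5.33 and 4.30 kb under LncMyod siRNA (1.02 ± 0.14, SE; adjusted p = 0.00606 by limma). With lists of equal length it stood at -0.23 (adjusted p = 0.385 by limma), and with peaks of a -log10 q of at least 5 at -0.13 (adjusted p = 0.728 by limma). Myf5, a factor of committed satellite cells, had 4.67 to 5.01 kb in fresh cells and 2.62 to 4.01 kb in culture (-0.59 ± 0.13, SE; adjusted p = 0.0226 by limma), and at its neighbour Myf6 the difference was -0.58. Loci of Myf5 and Myf6 share peaks and are not independent.

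Myod1 had 2.03 and 2.21 kb in QSC, 3.57 and 3.00 kb in ASC, and 2.78 to 3.75 kb in culture, and did not pass (0.28, adjusted p = 0.115 by limma). Over its gene body alone it had less in culture (-0.69, adjusted p = 0.00843 by limma). Upstream of it lies Gm45923, known as Munc or DRReRNA, a noncoding RNA of the distal regulatory region of Myod1. Its start window had a peak in all cultured libraries and in no fresh one, and its locus covered 2.03 and 2.21 kb in QSC, 3.57 and 3.78 kb in ASC and 3.52 to 4.4 kb in culture (0.47, adjusted p = 0.0140 by limma). It was picked out after its values were seen. Loci of Gm45923 and Myod1 overlap and share peaks, so they are not independent. Pax7 had 11.0 to 13.0 kb in fresh cells and 8.49 to 11.4 kb in culture (-0.34, adjusted p = 0.0535 by limma). Mymk, the fusion protein myomaker, had 2.06 to 4.08 kb and 3.52 to 6.91 kb (0.79, adjusted p = 0.0684 by limma).

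Adhesion and synapse genes made up most of the remaining calls in the programme. Cdh2 (0.52), Cdh4 (0.54) and Ncam1 (0.56), which mediate contact between myoblasts, had more. So did Rapsn (0.75) and Dok7 (0.51) of the neuromuscular synapse and the muscle methyltransferase Smyd1 (0.37). Musk, the synapse's receptor kinase, had less (-0.59), with QSC at 7.12 and 7.84 kb, ASC at 4.47 and 3.72 kb and culture at 2.79 to 3.96 kb. Eya1, a coactivator of muscle development, had less as well (-0.49). Pax3, Mymx, Spry1, Heyl, Calcr, Mki67, H19 and Igf2 did not pass the threshold, with log2 differences between -0.35 and 0.39.

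Of 31 quiescence genes, 8 had less covered length in culture and 1 more, beside 9.42% and 10.3% of all tested loci. Their median was -0.24, against -0.05 over all. Cd34, a surface sialomucin of quiescent cells, had 5.31 and 4.75 kb in QSC, 2.45 and 1.31 kb in ASC and 1.24 to 2.21 kb in culture. Chodl, a lectin used as a marker of quiescence, had 3.22 and 3.18, then 1.73 and 1.57, then 1.23 to 1.62 kb. At both genes ASC lay at or near the cultured level. Nfia (-0.52), Col15a1 (-0.47), Sdc4 (-0.45), Tcf4 (-0.33), Foxo3 (-0.29) and Kcnma1 (-0.24) also had less. Foxo3 and Sdc4 did not show that order: Foxo3 had 10.1 to 10.6 kb in all fresh libraries and 8.09 to 8.79 kb in culture. Ptprt, a receptor phosphatase, went the other way, with 3.71 and 3.31 kb in QSC, 1.83 and 1.84 kb in ASC and 5.61 to 6.83 kb in culture. Counts depended on the setting: 1 had less without scaling (3 more), 1 had less with 2 plain sides, and none had less without QSC. With less there were 2 without Control siRNA replicate 2, 3 without QSC replicate 2 and 4 without Control siRNA replicate 1. The number was 5 without QSC replicate 1 and 12 without ASC. Msc, a bHLH repressor fixed as a satellite cell marker, had less too (-0.59).

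Immediate early genes, which cells induce within minutes of a stimulus such as tissue dissociation, had less covered length in culture in 7 of 30 cases and more in none. Over all loci 9.42% had less and 10.3% more. The median of the list was -0.24, against -0.05 over all. By the count of loci where the 4 cultured libraries lay below all fresh ones, 11 of 30 did, beside 12.4% of all loci. Fosb had 5.62 and 6.02 kb in QSC, 5.50 and 6.87 kb in ASC and 2.99 to 3.40 kb in culture (-0.83 ± 0.09, SE; adjusted p = 0.00322 by limma). Egr1 had 3.37 and 3.47 kb, 1.98 and 2.37 kb and 1.53 to 1.85 kb. Atf3, Jund, Klf4, Nr4a1 and Dusp1 passed as well, between -0.31 and -0.43. Fos did not (-0.23, adjusted p = 0.125 by limma), with 2.06 to 3.18 kb in culture and 2.9 to 3.69 kb in fresh cells. Fewer passed downwards under most settings. Only 1 did with 2 plain sides, without QSC replicate 2, without QSC or without Control siRNA. Without QSC replicate 1, without Control siRNA replicate 1 or without scaling, 2 did. Without each of the other libraries 3 or 4 did, except LncMyod siRNA replicate 2, where 6 did.

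**Figure D4:**
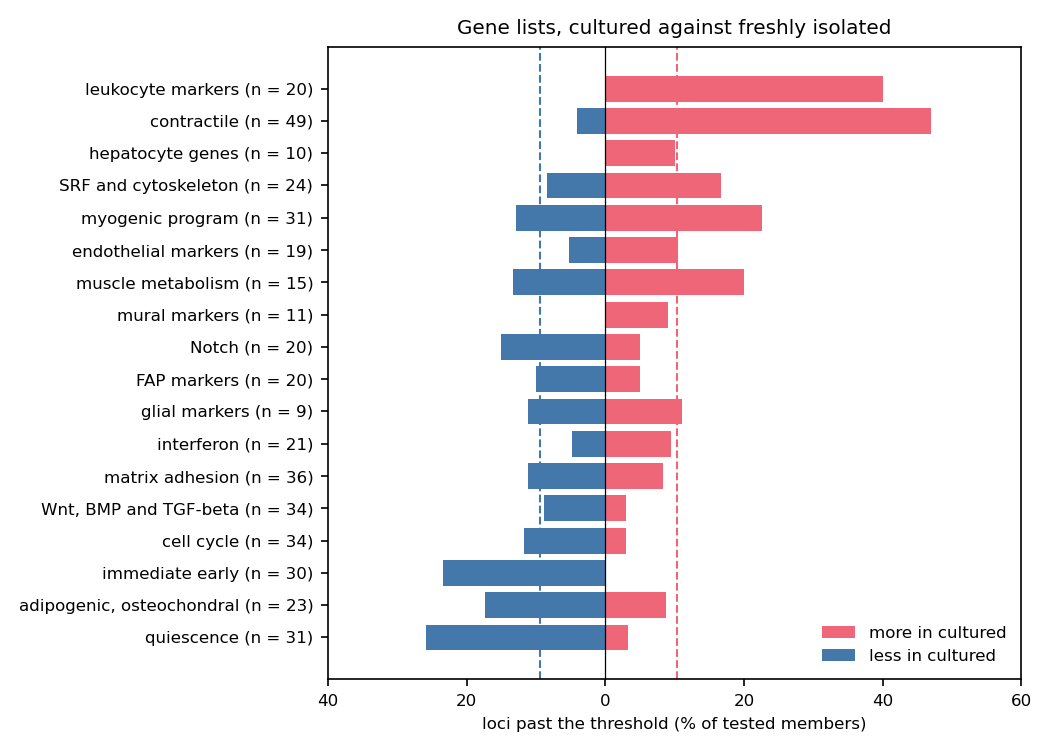
Share of the tested members of each gene list (%) whose loci had more covered length in culture (red, right) or less (blue, left) past limma's threshold, with the number of members tested in brackets and dashed lines at the shares of all loci, 10.3% and 9.42%. Leukocyte markers and contractile genes reach farthest right, and quiescence and immediate early genes farthest left.

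Cell cycle genes had less in 4 of 34 cases and more in 1, with a median of -0.16, and the share with less was near the 9.42% of all loci. Without QSC replicate 2 or Control siRNA replicate 1, or with 2 plain sides, none had less. Without QSC replicate 1, ASC replicate 1, Control siRNA replicate 2 or LncMyod siRNA replicate 1, 1 did, and without LncMyod siRNA replicate 2, 2 did. Ccnd1, which drives entry into the cycle, had 3.87 to 6.04 kb in fresh cells and 2.92 to 3.71 kb in culture. Ccnd2 and Mcm5 were highest in ASC, at 3.94 and 3.71 kb and at 3.36 and 3.71 kb, and lower in QSC and culture alike. Cdk1 had less (-0.66), and Ccne1 more (0.47). Notch signalling keeps satellite cells quiescent. Of 20 of its genes, the receptor Notch3 (-0.41), the ligand Dll1 (-0.46) and the target Hey2 (-0.60) had less. The coactivator Maml3 (0.22) had more, and over all loci 9.42% had less and 10.3% more. The Notch list had a median of -0.05, that of all loci, and none of its genes had less without QSC replicate 1, QSC replicate 2 or Control siRNA replicate 1, and 1 without Control siRNA replicate 2. Among 34 genes of Wnt, BMP and TGF-beta signalling, 3 had less and 1 more, and 1 had less without QSC replicate 2 or without either Control siRNA replicate. Bmp4 had 2.63 to 3.23 kb in fresh cells and 0.740 to 1.42 kb in culture (-1.23 ± 0.17, SE; adjusted p = 0.00561 by limma), without overlap. Bmp6 (-0.60) and Rspo3 (-0.86) had less too, and Wnt4 (0.42) more. Among 24 SRF targets and cytoskeletal genes 4 had more (Flna, Myl9, Mrtfb, Zyx) and 2 less (Cnn2, Fhl1), among 21 interferon genes Oas2 and Oas3 had more and Isg15 less, and among 23 adipogenic and skeletal genes 2 had more (Bglap, Acan) and 4 less (Pparg, Alpl, Sox5, Sox6). These counts are small, beside 10.3% with more and 9.42% with less over all loci. The adipogenic and skeletal list had a median of -0.24, against -0.05 over all loci. No SRF gene had more without QSC replicate 2 or Control siRNA replicate 2, 1 did without QSC replicate 1 or Control siRNA replicate 1, and 2 without either LncMyod siRNA replicate, and 0 or 1 had less without each library. Of the adipogenic and skeletal genes 1 had less without Control siRNA replicate 2, and 2 without Control siRNA replicate 1 or either QSC replicate. An interferon gene had less without ASC replicate 1 or LncMyod siRNA replicate 1, and none did without any of the other libraries.

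Of 15 genes of muscle metabolism, 3 had more and 2 less, beside 10.3% and 9.42% of all loci. With less there were 0 without any single QSC, Control siRNA or LncMyod siRNA library and 1 without either ASC library. Cox6a2, the muscle form of a cytochrome oxidase subunit, was listed at 0 in 3 of the 4 fresh libraries and at 0.282 kb in ASC replicate 1, and had 0.618 to 1.52 kb in culture. Ckmt2, mitochondrial creatine kinase, was listed at 0 in every fresh library and at 0.352 to 1.38 kb in culture. Pfkm, muscle phosphofructokinase, had more (0.72). Slc2a4, the insulin-responsive glucose transporter, had less (-0.62; it shares its peaks with its neighbour Ybx2), as did Ppargc1a (-0.23). Of 36 matrix and adhesion genes, 3 had more and 4 less: Col6a2 (0.84), Thbs1 (0.62) and Lox (0.49) had more, and the integrin subunits Itgb1 (-0.67), Itga5 (-0.43) and Itgav (-0.39) and the laminin chain Lamc1 (-0.37) had less. These shares are near those of all loci. None had less without Control siRNA replicate 1, 1 without QSC replicate 1 or Control siRNA replicate 2, and 2 without QSC replicate 2 or LncMyod siRNA replicate 2. With more there was 1 without QSC replicate 1, Control siRNA replicate 1 or LncMyod siRNA replicate 2.

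Markers of leukocytes moved with the side as well. Of 20 tested, 8 had more covered length in culture and none had less, beside 10.3% and 9.42% of all loci. Their median was 0.53, against -0.05 over all loci. With 2000 bp added in place of 500 bp it was 0.27, against -0.03. Summed length over the whole list was 33.4 to 42.0 kb in culture, 27.4 and 28.2 kb in ASC and 17.5 and 17.1 kb in QSC. Itgam, an integrin of myeloid cells, was listed at 0 in QSC, had 0.533 and 0.297 kb in ASC and 1.3 to 2.35 kb in culture. Laptm5, a lysosomal protein of blood cells, followed the same order at 0, 0.959 and 1.12, and 1.94 to 4.71 kb. Runx3 had 3.04 and 2.37, 4.85 and 5.24, and 5.96 to 8.55 kb. C1qb and C1qc, which share their peaks with each other and partly with C1qa, were listed at 0 in all fresh libraries and had 0.482 to 1.01 kb in culture, and Cd3e of T cells passed too.

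Of the 20, 18 had a positive difference, and without QSC 3 passed. Among those that did not pass, Ptprc, which encodes CD45, had 0.770 and 0.286 kb in ASC, 0.530 and 0.497 kb under Control siRNA and 0 in the QSC and LncMyod siRNA libraries. Lyz2 was listed at 0 except for 0.214 and 0.206 kb under LncMyod siRNA. Spi1, a myeloid transcription factor, had 2.27 to 2.94 kb in fresh cells and 1.54 to 2.94 kb in culture, and the macrophage gene Cd68 had 4.07 to 4.55 kb and 3.79 to 4.42 kb. Markers of fibroadipogenic cells had less in 2 of 20 cases and more in 1, beside 9.42% and 10.3% of all loci. Their median of -0.05 was that of all loci. Prrx1, a mesenchymal homeobox gene, had 4.50 to 10.0 kb in fresh cells and 2.25 to 3.43 kb in culture, Dpt had less (-0.85), and Fbln1 more (0.70). Their summed length was 54.5 to 64.4 kb in fresh cells and 51.8 to 56.7 kb in culture. Endothelial markers had more at Cdh5 and Sox17 (for Sox17 not with lists of equal length, at -1.15) and less at Egfl7, of 19. Of 9 glial markers, 1 had more (Gfra3, 0.87) and 1 less. Of 11 mural markers Pdgfrb had more (0.37), and of 10 hepatocyte genes Ttr had more (0.82). Counts in these lists are small, beside the same shares of all loci. The part that other cell types have in any of these differences was not tested.

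Promoter windows separated the sides at few genes. Of 26794 genes with a window, 97 had one open in all cultured libraries and no fresh one, and 71 the reverse, while 11528 had one open in all 8. Of the 97, 41 encoded proteins and 56 long noncoding RNAs, and of the 71, 44 and 27. Leaving out LncMyod siRNA replicate 2 gave 176 and leaving out ASC replicate 2 or LncMyod siRNA replicate 1 gave 130 and 113 for the reverse. With lists of equal length the counts were 80 and 209.

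By lowest fold among the 41 the rule named Mcpt8, Capn3, Tmem182, Aldh3b3, Nrap, S100a4, Tm4sf1 and Lnp1. Capn3 had folds of 6.32 and 5.58 under Control siRNA and 4.59 and 4.64 under LncMyod siRNA, and Nrap 4.14, 4.26, 5.2 and 4.83. Tmem182, a membrane protein of muscle, had 7.84, 6.05, 7.57 and 4.59. The others included Acta1, Actc1, Tnni1, Tnnt1, Casq2, Csrp3, Xirp2, Unc45b, Trim63, Asb2, Mb, Cox8b and Akt2, read from the list after their values were seen. Trim63, a muscle ubiquitin ligase, and Unc45b, the myosin chaperone, were in that set without a call for the whole locus, as were Mb, Tnnt1, Cox8b and Tmem182, and the Asb2 locus had less covered length in culture (-0.43, adjusted p = 0.0121 by limma). Csrp3, muscle LIM protein, had 0 to 0.381 kb over its locus in fresh cells and 1.32 to 1.79 kb in culture. In the reverse set the rule named Galnt7, Abca17, Sptbn4, Scyl3, Eif4e, Ybx2, Enthd1 and Phactr1, with folds of 5.11, 4.82, 5.02 and 4.85 at Galnt7.

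Secreted factors also occurred in the reverse set: Il11, Cxcl3, Adm, Wnt16, Esm1, Dhh and Cck, again read from the list. The cultured-only set held genes of secreted proteins as well, such as Hgfac. Their share over all windows was not counted, so they do not set either side apart. Il11 had folds of 3.45 and 3.32 in QSC and 3.27 and 3.31 in ASC at its start window. Over its locus it covered 4.78 and 4.99 kb, then 3.06 and 3.76 kb, then 1.62 to 2.21 kb in culture (-0.97, adjusted p = 0.00360 by limma). Cxcl3, a neutrophil chemokine, had 1.68 and 1.63 kb in QSC and 1.31 and 0.692 kb in ASC, and no peak within its locus in culture. Adm, which encodes adrenomedullin, had 2.58 to 4.14 kb in fresh cells and 2.04 to 2.37 kb in culture.

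The sequences printed above belong to sets that differed in motif content. The E-box CAGCTG, read on both strands, was found in 24 of 45 cultured-only windows of protein-coding genes (53.3%) and in 4 of 44 isolated-only windows (9.09%), beside 16.4% of all 32619 windows and 15.7% of those open in all 8 libraries. CACCTG, the other specific E-box searched, had nearly equal shares, 20%, 18.2% and 20.3% of the first, second and all windows. The TEAD motif GGAATG was in 15.6%, 11.4% and 14.6%. MEF2 matches were in 13.3%, 2.27% and 1.85% of the first, second and all windows, and CArG boxes in 6.67%, 0% and 1.64%. The RUNX motif TGTGGT was in 33.3%, 13.6% and 16.6%, and TATAAA in 9 of 45, 3 of 44 and 13.7%. GGGCGG showed the opposite order, in 9 of 45 (against 24 of 44, or 54.5%) and in 35.9% of all, and in 68.8% of windows open in all 8. Median GC content was 51.3% in the cultured-only windows, 58.0% in the isolated-only ones and 53.0% over all, and the median number of CpGs was 3, 11 and 7. Over all 106 cultured-only windows, those of long noncoding RNAs included, CAGCTG was in 41.5%, MEF2 in 8.49% and CArG in 3.77%, and over all 73 isolated-only windows in 12.3%, 1.37% and 0%. The 13332 and 32619 windows also include noncoding RNAs. CAGCTG is a case of the general E-box CANNTG, which 72.3% of all windows hold. Mb, Tnni1 and Smim22 each count with 2 overlapping windows, and a match is not a bound site.

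**Figure D5:**
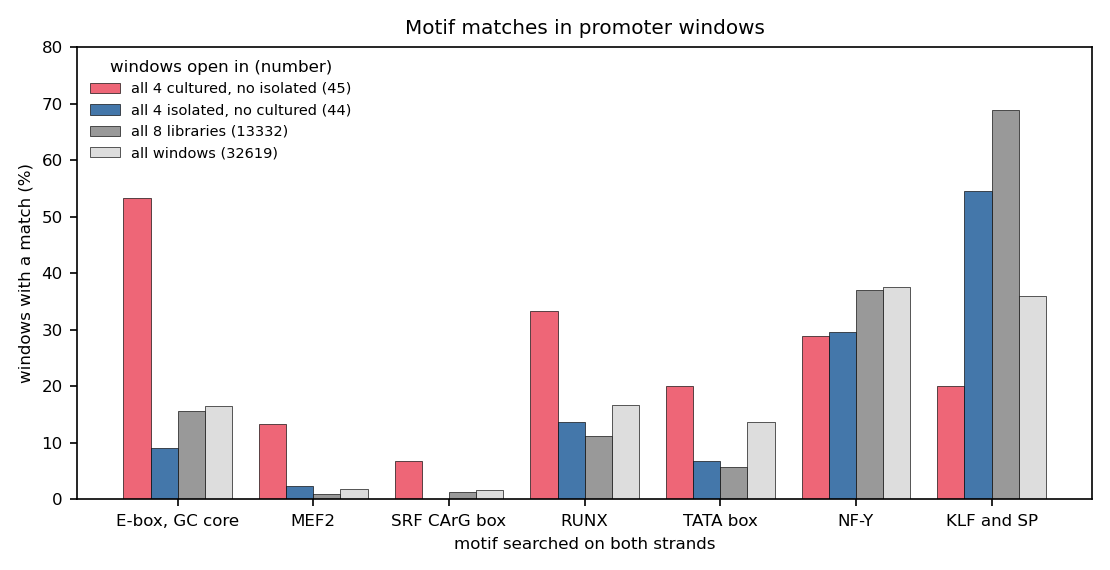
Share of promoter windows (%) with at least 1 match to each of 7 motifs on either strand, for protein-coding windows open in all cultured and no freshly isolated libraries (45), for the reverse (44), for windows open in all 8 (13332) and for all windows (32619). The E-box with a GC core reaches 53.3% in the first set, and the KLF and SP motif 54.5% in the second.

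MicroRNA genes were examined as an addition after the data had been seen, as hairpins with 10 kb on both sides. MicroRNAs pair with messenger RNAs through their seed, bases 2 to 8, which are in capitals here. Of 811 hairpin loci tested, 76 (9.37%) had more covered length in culture and 48 (5.92%) less (limma). The mature sequences of those described are these, picked after their values were seen.
miR-206-3p: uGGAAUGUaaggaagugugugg
miR-148b-3p: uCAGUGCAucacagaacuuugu
miR-181a-5p: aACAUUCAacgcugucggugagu
miR-181b-5p: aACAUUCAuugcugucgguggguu
miR-195a-5p: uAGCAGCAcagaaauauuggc
miR-497a-5p: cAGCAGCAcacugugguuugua
miR-106a-5p: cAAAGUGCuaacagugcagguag
miR-20b-5p: cAAAGUGCucauagugcagguag
miR-100-5p: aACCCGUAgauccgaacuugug

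The muscle microRNA gene Mir206, at chr1:20679010-20679082, had 1.36 and 1.53 kb in QSC, 4.52 and 2.63 kb in ASC and 3.69 to 5.16 kb in culture (0.77, adjusted p = 0.0283 by limma), so QSC alone was low. Its neighbour Mir133b was in the same order and did not pass (0.53, adjusted p = 0.0874 by limma). Mir148b was listed at 0 in all fresh libraries and at 0.807 to 1.41 kb in culture. The pair Mir181a-1 and Mir181b-1, whose products share a seed, had 0.272 kb in ASC replicate 1, none in the other fresh libraries and 0.567 to 0.842 kb in culture. Mir195a and Mir497, adjacent genes whose 5p products share a seed, had 2.46 to 3.73 kb in fresh cells and 1.80 to 2.22 kb in culture (-0.49, adjusted p = 0.0130 by limma). Mir106a and Mir20b, with a shared seed in an X-linked cluster, had 0.278 to 0.600 kb in fresh cells and no peak in culture. Mir100 was high in QSC at 1.80 and 1.65 kb, and had 0.586 and 0.998 kb in ASC and 0.160 to 0.685 kb in culture.

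Regions held by all 8 libraries were compared by their covered width. Of 35293, 859 (2.43%) were wider and 4350 (12.3%) narrower in culture (limma), and the median over all was -0.25 on the log2 scale of scaled width. That median was 0.03 with lists of equal length, -0.0023 with quantile normalization and -0.06 without scaling. Unscaled median widths of these regions overlapped, at 772 to 862 bp in fresh and 713 to 834 bp in cultured libraries. The balance changed with the scaling: lists of equal length gave 1715 wider and 1152 narrower, quantile normalization 1724 and 1491, and no scaling 1174 and 1535. Without Control siRNA replicate 2 or 1 there were 379 or 396 wider and 1771 or 1738 narrower. Without QSC replicate 2 or 1 there were 1491 or 2055 narrower, and without ASC replicate 2 2660.

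A region 44630 bp from Lbx1, at chr19:45281471-45283837, widened from 286 to 384 bp in fresh cells to 1288 to 2366 bp in culture. Inside Ltbp1, at chr17:75349069-75350854, the covered width went from 384 to 507 bp to 1602 to 1779 bp, while the whole Ltbp1 locus had less covered length (-0.53). Regions in Bdh2 and Xrcc3 were wider in all cultured libraries, and at the start of Gpr146 QSC was narrow at 215 and 209 bp while ASC, at 1840 and 1527 bp, was near culture at 1649 to 1939 bp. In the other direction, a region 3106 bp from Mid1, at chrX:169993904-169997180, covered 2243 to 3253 bp in fresh cells and 415 to 425 bp in culture. That of Jdp2, a repressor of AP-1, at chr12:85618400-85620120, had 1333 to 1585 bp against 329 to 465 bp. Regions in Arhgef10l and in the noncoding RNA genes 3300005D01Rik and Gm39809 were the others. The wider regions lay within 1 kb of a start in 12.8% of cases, the narrower ones in 30.9% and all of them in 33.1%.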

How the data were processed

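A deposited list of broad peaks per library, called by the authors on each library by itself, was used for 8 libraries of 4 groups with 2 replicates. Peak numbers skip within the lists, so some peaks had been removed before deposit by a step that the labels do not describe, and an absent peak may be one of these. The build mm10 is named in the submitters' processing notes, together with MACS2 2.1.1, Bowtie2 2.3.2, bedtools 2.26.0, Trimmomatic 0.36, Picard 2.9.2, SAMtools 1.3 and bcl2fastq 2.19. Their parameters, and any shift of read ends, are details not given in the sources used. A deposited peak comes with its fold enrichment (a ratio to the local background of its library), a −log10 p and a −log10 q, and a display score, as the authors' caller gave them. Those values served only to rank, describe or filter peaks within a library.

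With numpy 2.4.6, overlapping peaks of chromosomes 1 to 19 and the sex chromosomes were joined into regions, and a library held a region or promoter window with at least 1 covered bp. The test took 27938 of 34328 loci, those where 2 or more libraries covered 200 bp or more. Gene positions and sequences came from RefSeq on GRCm38.p6, whose chromosomes have the coordinates of mm10. With limma 3.58.1, group means were estimated for the 4 groups over all 8 libraries with a trended prior, on log2(scaled bp + 500 bp), and the mean of the cultured groups was set against that of the isolated ones. Adjusted p-values used the Benjamini-Hochberg method at 0.05. Neighbouring loci can share peaks. The fit and the overlap functions were tested on simulated data. Of 453 entries in 18 gene lists, 450 matched.

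The comparison, the lists and the markers were chosen with earlier results of these data known. Genes were named by a rule: strongest calls with at least 2 kb and no overlap between sides, most side-specific regions, highest lowest fold, a set of lineage genes, and list members past the threshold. Alternatives were a −log10 q of at least 5, lists of equal length, at least the larger part of a region covered, chromosomes 1 to 19, other scalings, flanks, pseudocount and filter, a design of 2 sides, a replicate block, and leaving out each library. Leaving out each group was added after seeing the data. Results for a few genes are not reported here.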

Additional observations from a re-analysis of the deposited data

Results flagged for a closer look

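In 96 sets of 4 libraries, from peak counts, widths and the named loci, 2 held a library far from the other 3 of its side. Chance alone flags about 1 in 20 such sets. At Pcdh10 the lowest cultured library, LncMyod siRNA replicate 1 at 0.724 kb, lay below 0.870 to 0.896 kb in the others, and its gap to the nearest took 0.849 of the range. At Pax3 the highest cultured library, Control siRNA replicate 1 at 4.28 kb, lay above 3.26 to 3.40 kb in the others, with a gap of 0.862 of the range. Pcdh10 remained without overlap between the sides, and Pax3 did not pass limma's threshold (-0.16, adjusted p = 0.496).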

How the results depend on the processing

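Peak lists without read counts limit every value here: depth cannot be set equal, and trimming lists to equal length is the nearest step to it. Of 119 named loci past the threshold that were followed through the settings, 25 were called under every setting run and 104 never changed sign. Other loci named above were not followed one by one. Among these are Flna, Myl9, Mrtfb, Zyx, Cnn2, Fhl1, Oas2, Oas3, Isg15, Bglap and Acan. Thbs1, Lox, Itgav, Gfra3, Pdgfrb, Ttr, Il11, Asb2, Gm45923 and the microRNA loci were not followed either. Regions of the cultured side alone numbered 6752. They numbered 7030 to 10953 when each library was left out, 14221 without ASC and 12470 without LncMyod siRNA. Regions of the isolated side alone (779) came to 414 with a -log10 q of at least 5, 2025 with lists of equal length, 849 to 1989 with each library left out, 9592 without ASC, 1321 without LncMyod siRNA and 2245 without QSC. The 97 genes with a cultured-only window became 102 to 176 with each library left out, and 185, 306, 203 and 159 without Control siRNA, ASC, LncMyod siRNA and QSC. The 71 of the reverse became 209 with lists of equal length, 79 to 130 with each library left out, and 120, 311, 135 and 171 without the same groups.

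Loci with more covered length (2874) ran from 1432 to 2589 with each library left out, and came to 1133 with 2 plain sides, 4730 with 50 kb flanks, 1406 without Control siRNA and 638 without QSC. Loci with less (2633) ran from 927 to 2230, and came to 985 with 2 plain sides, 880 without scaling, and 968, 1439 and 420 without Control siRNA, LncMyod siRNA and QSC. Wider regions (859) ran from 379 to 917, and came to 475 with the stricter q, 1715 with equal lists, 364 with 2 plain sides, 1724 with quantile normalization, and 245, 1609 and 379 without Control siRNA, ASC and QSC. Narrower regions (4350) ran from 1491 to 4765, and came to 1152 with equal lists, 2652 with 2 plain sides, 1535 without scaling, 1491 with quantile normalization, and 1527, 1622 and 1065 without Control siRNA, LncMyod siRNA and QSC. The Jaccard gap was 0.0962 to 0.142 with each library left out, a stricter q, equal lists or chromosomes 1 to 19, and 0.0841, 0.093 and 0.194 without LncMyod siRNA, Control siRNA and ASC. Regions and windows of a single side are easier to meet by rule when libraries are left out. The causes of the other shifts were not tested.

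Among the loci followed through the settings, signs reversed as follows, on the log2 scale. With the gene body alone, Myf5 was 0.16, Myod1 -0.694, Acta1 -0.287, Myh2 0.288 and Atf3 0.121. With 50 kb flanks, Myh7 was -0.037 and Nr4a1 0.008. With the stricter q, Myog was -0.13, Tpm2 -0.079, Ncam1 -0.127 and Wnk2 -0.342. With equal lists, Myog was -0.231, Tpm2 -0.117, Tcap -0.332, Cdh4 -0.279, Ncam1 -0.081 and Sox17 -1.153. Without QSC, Smyd1 was -0.024, Kcnma1 0.226 and Sox17 -0.321.

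Replicate numbers were not shown to pair libraries: differences between replicates correlated across groups at 0.00783 to 0.0964. A replicate block gave 2737 loci with more and 2412 with less, and 813 wider and 4271 narrower regions.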
